A study of Mus musculus with 12 samples.

Results

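Wnt signalling was followed in mouse hair follicle stem cells (HFSCs) through 54 genes, comprising 16 Wnt ligands, 12 receptors, 9 secreted inhibitors, 8 genes of the R-spondin axis, 5 intracellular transducers and 4 feedback targets. They are a list of pathway genes by name, matched by gene symbol in each of the deposited tables. A row was found for 52 of the 54 among the 17885 genes of the Eed table and for 54 among the 21915 genes of the hair cycle table. Wnt1 and Wnt2 were the members with no row in the Eed table and are not analysed there.

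RNA was sequenced from HFSCs sorted by flow cytometry from back skin of C57BL/6J mice (positive for EpCAM and CD34, high for α6-integrin and negative for Sca1), in 12 libraries of 3 per group. The Eed table compares wildtype control with Eed iKO (genotype Eed -/- in the labels) at postnatal day 70, where a K15-CrePGR transgene, a Cre recombinase driven by the Keratin 15 promoter and switched on by RU-486, deletes floxed alleles of Eed. Eed encodes a core subunit of the Polycomb repressive complex PRC2, and RU-486 was applied to the skin at 10 mg/ml once a day for 7 days. By the study's scheme for animals of postnatal day 70, this treatment began at postnatal day 50. The hair cycle table compares wildtype mice in anagen, the growth phase (postnatal days 28 to 30), with wildtype mice in telogen, the resting phase (postnatal days 50 to 52), so that phase and age cannot be told apart. By the study's methods, control mice received the ethanol carrier without RU-486, so deletion and drug cannot be told apart in the Eed comparison.

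Wnt ligands are secreted proteins that bind a Frizzled receptor together with the co-receptor LRP5 or LRP6. In the canonical branch this binding stops the destruction complex, which contains AXIN1 and AXIN2, from degrading β-catenin (encoded by Ctnnb1), and β-catenin then acts in the nucleus with TCF/LEF factors. R-spondins bound to LGR4, LGR5 or LGR6 protect Frizzled receptors from the ubiquitin ligases ZNRF3 and RNF43. SFRP and WIF1 proteins and some DKK proteins act outside the cell as inhibitors. Dkk3 is listed with the inhibitors by its family, and its action on Wnt signals was not tested. In the hair follicle, Wnt signalling is known for starting the growth phase, and Axin2, Nkd1, Nkd2 and Apcdd1 are often read as its feedback targets.

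The unit throughout is the normalized count, a count per gene divided by the DESeq2 size factor of its library, and differences are in log2(normalized count + 1) with their standard error (SE). A member was called when limma gave an adjusted p under 0.05 over all genes of its table. Between 33269583 and 57063586 reads were recovered for each library of the Eed table, whereas for the hair cycle table the depth is unknown. The 9 bulge markers, Cd34, Krt15 and Sox9 among them, were present in every library. Telogen replicate 1 stood apart, with a Krt15 normalized count of 142406 against 344674 to 422433 in the other libraries of that table. The groups did not overlap in 5 of the 9 in the hair cycle (beside 33.3% of all genes) and in 5 of 9 in the Eed table (beside 20.2%). In the hair cycle 1 marker was called higher and 1 lower in anagen. Cd34 was at 6433, 9159 and 8295 in telogen and 2955, 3233 and 4144 in anagen. Itga6 was at 4177, 6580 and 6856 in telogen and 11655, 11473 and 10531 in anagen. Eed summed over the whole gene was 1084, 1249 and 950 in control and 933, 1361 and 1001 in the libraries labelled Eed iKO, which overlapped. The gene total does not resolve the deleted exons. By RT-qPCR the study reports lower Eed mRNA in isolated Eed iKO HFSCs. It also reports, by immunofluorescence, loss of H3K27me3, the histone mark made by PRC2, at postnatal day 70. The proliferation marker Mki67 was at 6125, 6301 and 609 in Eed iKO replicates 1, 2 and 3 against 639, 2543 and 928 in control. Eed iKO replicate 3 thus lay apart from the other libraries of its group, and replicates 1 and 2 lay above every control library. By immunofluorescence for Ki67, the study reports that HFSCs of Eed iKO mice were not activated early.

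The levels of the pathway genes in HFSCs spanned a wide range, with some inhibitors, receptors and transducers at the top and most ligands low. Other members of these roles were low too, and the inhibitors Dkk1, Dkk2 and Sfrp2 had the lowest levels of the members tested in control. Per kilobase (kb) of transcript, Sfrp1, a secreted Wnt inhibitor, had the highest level of the 45 members tested in control, at 19009 ± 2903 (SD, n = 3) normalized counts per kb, above 99.4% of the genes tested. Dkk3, a secreted protein of the Dickkopf family, followed at 15600 ± 4020, which overlapped with Sfrp1 within the SD. Fzd7 (8433 ± 118), Ctnnb1 (7537 ± 381), Lgr5 (7481 ± 670), Fzd2 (6978 ± 597), Tcf7l2 (4467 ± 950) and Fzd1 (2614 ± 304) came next. The levels of Ctnnb1, Lgr5 and Fzd2 overlapped with each other within the SD. The median gene tested in control was at 259 normalized counts per kb.

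In telogen HFSCs the leading members were largely the same genes, on a table with its own normalization. Ctnnb1 (3699 ± 90.3 normalized counts per kb) and Sfrp1 (3590 ± 389) did not differ beyond their spread, and Dkk3 (2561 ± 606) and Fzd7 (1891 ± 155) followed. Tcf7l2 (1174 ± 360), Fzd2 (1149 ± 239), Lgr5 (953 ± 146), Lgr4 (852 ± 152), Fzd1 (828 ± 198) and Lrp6 (774 ± 56.7) came next, and each overlapped within the SD with its neighbours in this order. Among ligands, Wnt4 was the most abundant in control (738 ± 15.4) and in telogen (76.7 ± 29.5). Each of the 10 ligands tested was below the median gene of telogen, which was at 81.65 normalized counts per kb. Several members were near or at the limit of detection. In the hair cycle table, 15 members did not pass the filter, namely Wnt1, Wnt2, Wnt3a, Wnt7a, Wnt10b, Wnt16, Dkk1, Dkk2, Sfrp2, Sfrp4, Sfrp5, Notum, Rspo1, Rspo2 and Rspo3. Wnt1, Wnt2 and Wnt7a were listed at 0 in all 6 libraries, and the highest value of the rest was 51.5 (Sfrp4 in telogen replicate 1). In the Eed table the 7 members with a row that did not pass were Wnt3a, Wnt7a, Wnt16, Sfrp5, Notum, Rspo2 and Rspo3, none above 44.4 normalized counts. Wnt10b, a ligand often tied to the onset of anagen, had scattered values of 4.86, 86.7 and 15.4 in control and 65.6, 3.98 and 18.8 in Eed iKO (difference -0.12, adjusted p = 0.978 by limma).

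The comparison of anagen with telogen asks which pathway genes change when HFSCs are active. Of the 39 members tested, 11 (28.2%) were called, beside 11.6% of all 13457 genes tested. The 9 members higher in anagen (23.1%, beside 7.22% of all genes) were the ligands Wnt5a, Wnt6 and Wnt7b, the co-receptor Lrp5, the inhibitor Sfrp1, the R-spondin receptors Lgr4 and Lgr6, and the transducers Ctnnb1 and Tcf7. The 2 lower in anagen (5.1%, beside 4.35%) were the receptors Fzd2 and Fzd5. None of the 4 feedback targets was called. An unadjusted p under 0.05 was found for 21 members (53.8%, beside 27.3% of all genes), and the groups did not overlap in 23 (59.0%, beside 33.3%). Leaving out any anagen library left 3 or 4 members called (7.69% to 10.3%, beside 4.44% to 6.35% of all genes). Without the intensity trend of limma 5 were called (12.8%, beside 6.26%), and Wnt5a, Lrp5, Fzd5, Sfrp1, Lgr4, Lgr6 and Ctnnb1 were not, with adjusted p from 0.0543 to 0.118. The median difference over the members tested was 0.35, beside 0.01 over all genes tested. A gene could pass the filter through 1 group alone, so these counts describe the members tested and not all 54. The list was also chosen with earlier results of these data known.

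**Figure D1:**
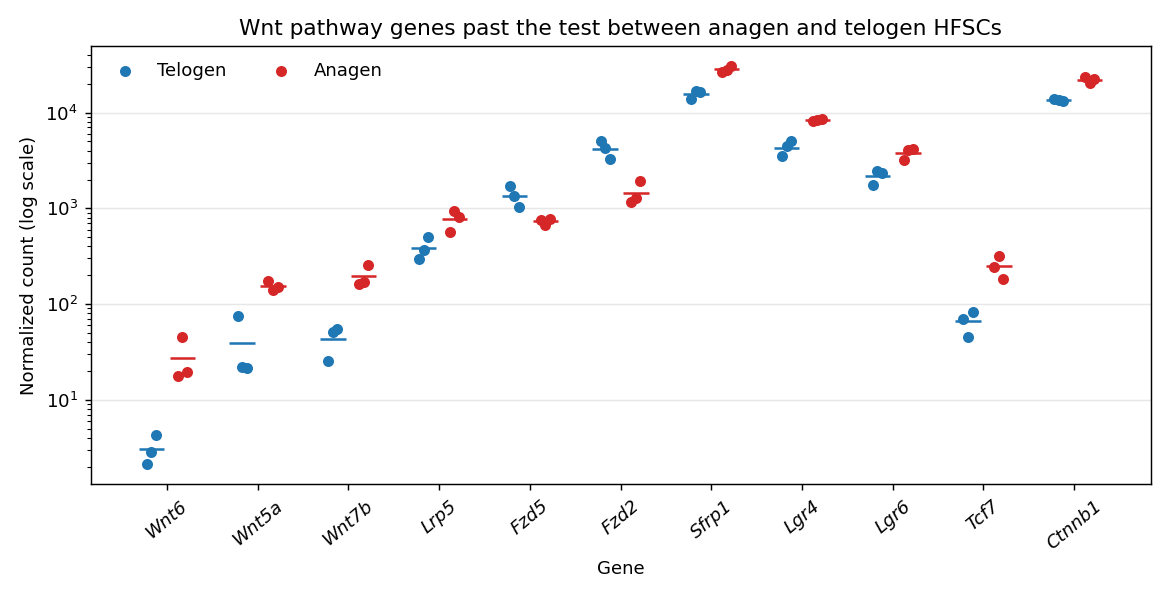
Normalized counts on a log axis of the 11 members called between anagen and telogen, with a point for each of the 3 libraries per group and a line at the group mean. In each gene the anagen and telogen points do not overlap, and Fzd2 and Fzd5 are the genes with the anagen points below.

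Among the 6 roles, ligands had the highest median difference in the hair cycle (1.15), with 3 called and 9 of 10 tested above 0, beside 6807 of all 13457 genes. Only 10 of the 16 ligands passed the filter. A gene can pass it through the phase in which it is high, and Wnt6 passed through anagen alone. The order of the roles and these signs are thus a description of the ligands tested. Wnt7b, a canonical ligand made by epithelial cells, counted 25.2, 51.1 and 54.4 in the telogen libraries and 163, 172 and 255 in the anagen libraries. Every anagen library was above every telogen library, and the difference was 2.20 ± 0.44 (SE), or 4.58-fold, with an adjusted p of 0.00976 by limma, which became 0.0559 without anagen replicate 3. Wnt5a, best known for signalling that does not pass through β-catenin, was at 75.4, 22.1 and 21.6 in telogen and at 175, 141 and 152 in anagen. Telogen replicate 1 was the highest of its group but below all anagen libraries, and the difference was 2.20 ± 0.53 (adjusted p = 0.0232 by limma). The call of Wnt5a was lost without any 1 of the other 5 libraries, with adjusted p from 0.0519 to 0.103, and kept without telogen replicate 1 (0.00301). Wnt6 was barely present in telogen at 2.12, 2.85 and 4.33 and reached 17.6, 45.8 and 19.6 in anagen (2.71 ± 0.74, adjusted p = 0.0385 by limma). Counts this low carry little depth, and the call of Wnt6 was lost when any 1 of the 6 libraries was left out, with adjusted p from 0.0542 to 0.181.

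At the methods' thresholds (a log2 difference beyond 2 with an unadjusted p under 0.05), 4 members were higher in anagen (beside 3.33% of all genes) and 0 lower. These were Wnt5a, Wnt6, Wnt7b and Wnt9a. Wnt9a no longer passed with a pseudocount of 0.1, without the intensity trend, or with any library other than telogen replicate 3 left out, and its difference ranged from 1.33 to 4.17 over the alternatives. Wnt9a spread widely, at 5.82, 0 and 50.6 in telogen and 35.5, 39.3 and 69.7 in anagen, and the groups overlapped (2.74 ± 1.16, unadjusted p = 0.0377, adjusted p = 0.155 by limma). Wnt5b (74.4, 84.3 and 59.2 in telogen, 166, 117 and 167 in anagen, adjusted p = 0.104) and Wnt10a (24.2, 20.0 and 19.0 in telogen, 53.7, 39.3 and 65.7 in anagen, adjusted p = 0.139 by limma) had groups that did not overlap but were not called. Wnt4, the most abundant ligand, was at 236, 463 and 266 in telogen and 425, 293 and 393 in anagen, with overlapping groups (0.25 ± 0.32). Wnt2b, Wnt3 and Wnt11 were low, at most 36.2 normalized counts, and gave 0.96 ± 1.36, -0.85 ± 0.72 and 0.35 ± 0.67. Summed per kb over all 16 ligands, the level was 149, 186 and 153 in telogen and 293, 267 and 337 in anagen. In RNA of a sorted population, more cells of a type and more RNA per cell cannot be told apart.

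Some markers of other cells differed between the phases, in both directions, and their part in these results was not tested. Of the 8 fibroblast and dermal papilla markers, 5 were tested and 2 were called higher in anagen. These were Col1a1 (65.5, 45.5 and 90.0 in telogen, 214, 227 and 419 in anagen) and Dcn (0, 0.644 and 1.47 in telogen, 38.5, 27.2 and 15.7 in anagen). Col1a2 went the other way without overlap, at 233, 600 and 346 in telogen and 154, 229 and 172 in anagen (adjusted p = 0.108 by limma). The summed normalized count of the whole list ranged from 356 to 797 in telogen and from 608 to 700 in anagen, and Col3a1 was at 0 in telogen replicates 1 and 3. Of the 7 transit-amplifying and hair lineage markers, 6 were tested, with Krt25 called higher (6.76, 5.56 and 10.1 in telogen, 189, 97.3 and 25.1 in anagen) and Msx2 called lower. Their sum ranged from 728 to 736 in telogen and from 595 to 751 in anagen. The 5 melanocyte markers summed to 2873 to 3277 in telogen and 1375 to 1462 in anagen, a sum led by Mitf. Mitf was called lower in anagen (2801, 3125 and 2963 in telogen, 685, 813 and 995 in anagen). Dct was called higher (61.2, 134 and 94.0 in telogen, 709, 531 and 387 in anagen). Of the 4 tested, 3 had differences above 0 and 1 below, so the sum does not give the direction of the list. The endothelial marker Cdh5 and the muscle marker Des were listed at 0 in all 6 libraries. All 5 proliferation markers were higher in anagen, with Mki67 at 421, 431 and 276 in telogen and 14954, 12975 and 10404 in anagen.

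Receptors went in both directions between the phases, with 6 of 12 above 0 and 6 below, beside 6807 and 6650 of all 13457 genes. Fzd2, a Frizzled receptor encoded by a gene on chr11:102604396-102608058 (GRCm38, plus strand), fell most. Telogen libraries held 5054, 4264 and 3305 normalized counts and anagen libraries 1171, 1287 and 1924, which did not overlap. The difference of -1.54 ± 0.24 (2.91-fold lower, adjusted p = 0.00252 by limma) was called with every alternative setting and with each library left out. Fzd5 fell as well, from 1692, 1352 and 1034 in telogen to 764, 669 and 779 in anagen (-0.86 ± 0.23, adjusted p = 0.0357 by limma). The call of Fzd5 was lost when any anagen library, telogen replicate 1 or telogen replicate 2 was left out, with adjusted p up to 0.138.

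The co-receptor Lrp5 rose from 297, 363 and 506 in telogen to 569, 938 and 815 in anagen (0.99 ± 0.28, adjusted p = 0.0455 by limma), and its call was lost in most of the alternatives, without telogen replicate 1 among them (adjusted p = 0.0857). Its relative Lrp6 was at 6644, 7647 and 7448 in telogen and 8647, 8941 and 10355 in anagen (0.36 ± 0.17, adjusted p = 0.197). Fzd1 was at 2527, 4065 and 3833 in telogen and 5434, 5269 and 5395 in anagen, and its groups did not overlap (0.66 ± 0.21, adjusted p = 0.0639 by limma). Fzd7, the receptor with the highest level, was at 9146, 7788 and 8770 in telogen and 9338, 9410 and 9957 in anagen (0.16 ± 0.16, 95% interval -0.20 to 0.52). Fzd3, Fzd4 and Fzd8 had unadjusted p-values under 0.05 and adjusted p-values of 0.157, 0.140 and 0.161. Fzd3 was at 5989, 6244 and 5592 in telogen and 4227, 5236 and 3981 in anagen. Fzd8 was also below telogen in every anagen library (105, 152 and 151 against 68.5, 77.8 and 72.7), whereas the low Fzd4 was above it (40.8, 20.0 and 86.1 against 106, 126 and 90.4). Fzd6, Fzd9 and Fzd10 had overlapping groups and differences of -0.07, 0.18 and -0.48.

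As a share of the summed Frizzled level per kb, Fzd2 made up 27.9%, 24.4% and 19.3% in telogen and 7.38%, 7.83% and 11.2% in anagen. The share of Fzd1 was 12.2%, 20.3% and 19.5% in telogen and 29.9%, 28.0% and 27.5% in anagen. Fzd7 held 39.4% on average in telogen and 46.9% in anagen. The level summed over all 12 receptors per kb was similar in both phases, at 5647 ± 77.8 (SD, n = 3) in telogen and 5644 ± 287 in anagen. These shares are given as a description, with no test.

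**Figure D2:**
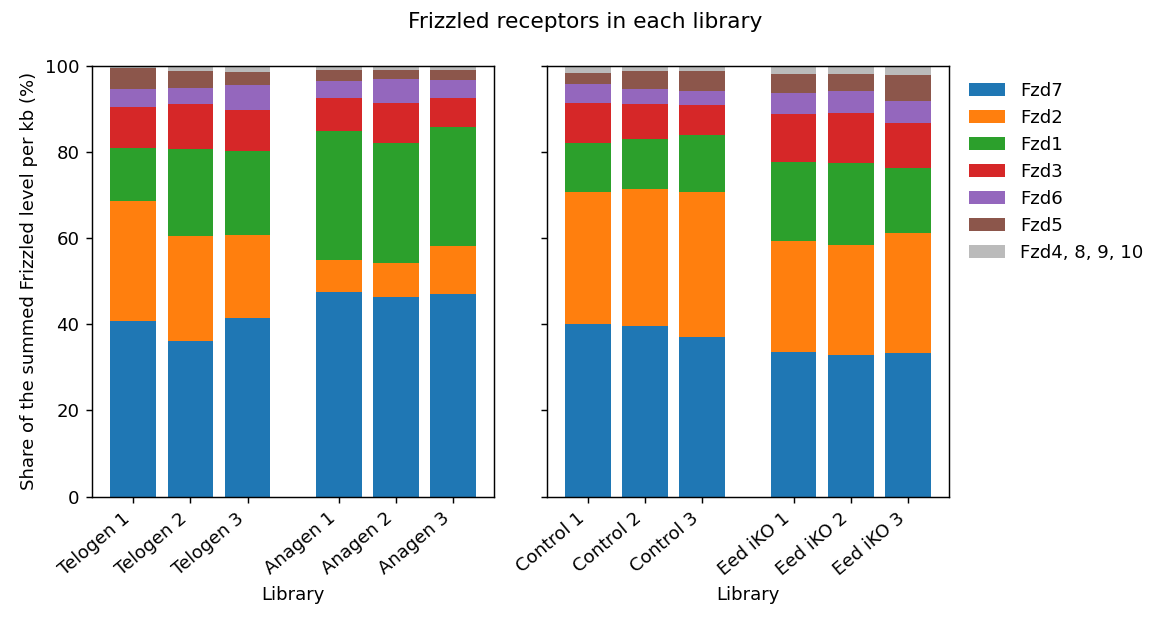
Share of each Frizzled receptor in the summed level per kb of all 10 Frizzled genes, as a percent, in each library of the hair cycle table (left) and of the Eed table (right). Fzd7 is the largest part in every library, and the Fzd2 part is smaller in the anagen libraries (7.38% to 11.2%) than in telogen (19.3% to 27.9%).

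On the R-spondin axis, Lgr4 and Lgr6 rose in anagen and Lgr5 was not called. Lgr4, an R-spondin receptor, was at 3483, 4436 and 5009 in the telogen libraries and at 8110, 8410 and 8595 in the anagen libraries. The groups were far apart, and the difference of 0.97 ± 0.18 (1.96-fold, adjusted p = 0.00717 by limma) was called with each library left out. Lgr6 was at 1767, 2483 and 2328 in telogen and 3202, 4076 and 4190 in anagen (0.81 ± 0.20, adjusted p = 0.0275 by limma). Leaving out any anagen library ended the call of Lgr6, with adjusted p from 0.0557 to 0.117. Lgr5, the receptor known as a stem cell marker of the lower bulge and hair germ, was at 3945, 4267 and 5264 in telogen and 3499, 3687 and 3657 in anagen. Every anagen library was below every telogen library, but the difference of -0.30 ± 0.18 was not called (adjusted p = 0.299 by limma, 95% interval -0.70 to 0.09). Znrf3, a ligase that removes Frizzled receptors and is itself a Wnt target, was at 532, 1132 and 971 in telogen and 1281, 1621 and 1623 in anagen (0.84 ± 0.28, adjusted p = 0.0789). Rnf43 gave 0.01 ± 0.38.

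Among secreted inhibitors only 3 of 9 were tested, and 1 was called higher in anagen, beside 7.22% of all genes. Sfrp1, the most abundant, rose from 13764, 16979 and 16343 in telogen to 26430, 27612 and 30780 in anagen (0.85 ± 0.18, 1.81-fold, adjusted p = 0.0108 by limma). The call of Sfrp1 was lost without anagen replicate 2 (adjusted p = 0.0548) and without anagen replicate 3 (0.0642). Dkk3 was at 6656, 10714 and 8434 in telogen and 5360, 5733 and 7014 in anagen, which overlapped (-0.49 ± 0.21, adjusted p = 0.156). Without telogen replicate 1, the library with low Krt15, Dkk3 was called (-0.67, adjusted p = 0.041). Wif1 was at 157, 181 and 93.8 in telogen and 237, 205 and 151 in anagen (0.48 ± 0.37, adjusted p = 0.432).

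All 5 intracellular transducers tested had differences above 0, beside 6807 of all 13457 genes. Of these, 2 were called higher in anagen, beside 7.22% of all genes. Ctnnb1, encoding β-catenin, rose from 13738, 13383 and 13084 in telogen to 23619, 20329 and 22469 in anagen. The libraries of each group lay close together, and the difference was 0.72 ± 0.17 (1.65-fold, adjusted p = 0.0178 by limma). By exon position, 15.1% of the exon bases of Ctnnb1 lie on other annotated genes. Tcf7, encoding the TCF1 factor, rose from 70.2, 45.3 and 83.1 in telogen to 245, 317 and 182 in anagen (1.90 ± 0.39, adjusted p = 0.0111 by limma). The TCF factors known from the bulge were not called, and a difference between genes was not tested. Tcf7l1 was at 157, 233 and 256 in telogen and 235, 172 and 301 in anagen (0.12 ± 0.34), and Tcf7l2 was at 2935, 5582 and 4572 in telogen and 5167, 5147 and 4057 in anagen (0.18 ± 0.24). Both overlapped between the phases. Axin1 of the destruction complex was at 187, 519 and 488 in telogen and 813, 643 and 593 in anagen (0.90 ± 0.37, adjusted p = 0.143 by limma). Leaving out any anagen library ended the call of Ctnnb1, with adjusted p from 0.0626 to 0.101, and Tcf7 lost its call without anagen replicate 1 (0.0604) or replicate 2 (0.0747).

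The 4 feedback targets had differences below 0, beside 6650 of all 13457 genes, with a median of -0.55. The sign turned for Nkd2 in 1 of 11 alternatives (up to 0.09) and for Apcdd1 in 2 (up to 0.44). Axin2, the target most often used as a readout of canonical signalling, was at 201.2, 250 and 354 in telogen and 135, 318 and 163 in anagen. These overlapped, and the difference of -0.45 ± 0.38 had a 95% interval from -1.29 to 0.39. Nkd1 was at 159, 151 and 139 in telogen and 75.6, 56.8 and 129 in anagen, with no overlap (-0.86 ± 0.40, adjusted p = 0.198 by limma). Nkd2 and Apcdd1 were low, none above 74.7 normalized counts, and gave -0.65 ± 0.76 and -0.08 ± 0.74.

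**Figure D3:**
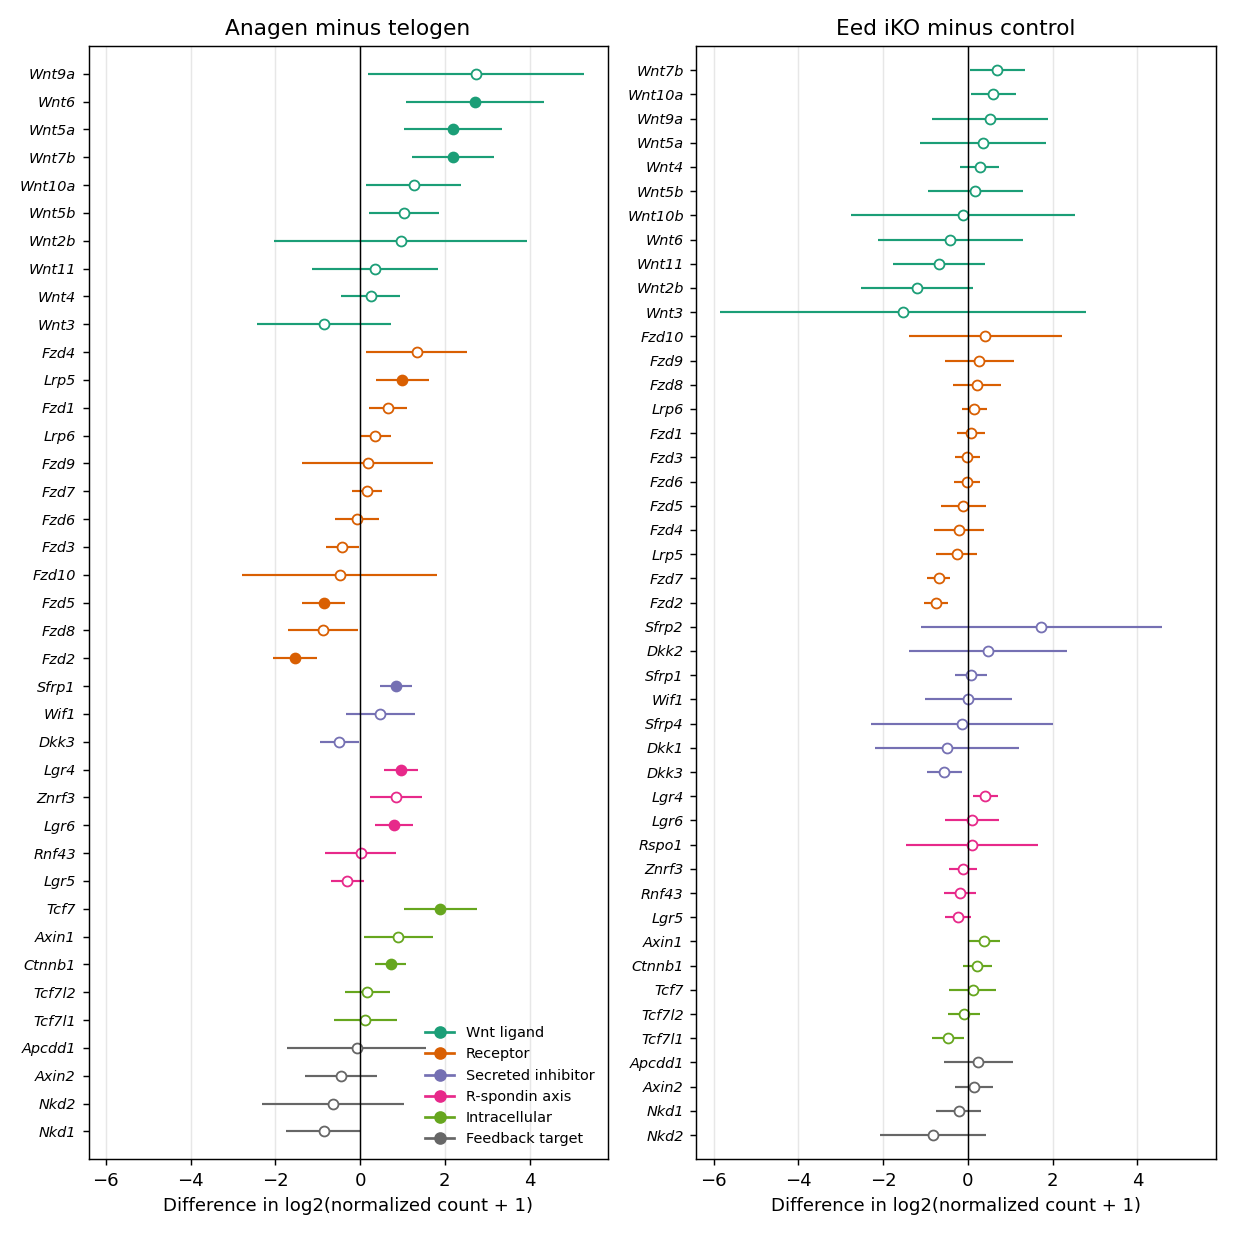
Difference in log2(normalized count + 1) with its 95% interval from limma for each member tested, anagen minus telogen (39 genes, left) and Eed iKO minus control (45 genes, right), coloured by role. Filled points are members called at an adjusted p under 0.05, of which there are 11 on the left and 0 on the right.

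Pathway genes outside the 54 were called about as often as all genes in the hair cycle, 6 of 49 tested (12.2%, beside 11.6%). Both lists were chosen with earlier results of these data known, so their shares are a description and were not tested against each other. Ror1, a receptor for Wnt5a, rose from 71.0, 115 and 98.8 to 648, 714 and 446 (2.66 ± 0.32, adjusted p = 0.000534 by limma). Sostdc1, a secreted inhibitor of BMP and Wnt signals, rose from 5396, 3836 and 4254 to 18017, 15902 and 18195 (1.96 ± 0.18). Ccnd1, encoding cyclin D1, rose from 1020, 1862 and 1026 to 4497, 3557 and 3260 (1.58 ± 0.26), and Gpc4, a cell surface glypican, and Celsr2 of the planar polarity pathway rose by 1.10 ± 0.19 and 0.73 ± 0.20. Vangl2, a core planar polarity gene, fell from 3089, 2973 and 3127 to 1728, 1741 and 1970 (-0.76 ± 0.17). Lef1, the TCF/LEF factor known from hair lineage cells, was at 133, 50.3 and 131 in telogen and 50.8, 68.4 and 102 in anagen (adjusted p = 0.616). The nuclear cofactors and the destruction complex list had 0 of 10 and 0 of 16 called.

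The comparison of Eed iKO with control asks whether loss of PRC2 in HFSCs of postnatal day 70 moves the pathway. None of the 45 members tested was called, beside 4 of all 15008 genes (0.0267%), and 0 members passed the methods' thresholds of 1.5 on the log2 scale with an unadjusted p under 0.05 (beside 1.75% of all genes). The count tests on recovered reads gave 0 members with edgeR (beside 0.0333% of all genes) and 2, Fzd2 and Fzd7, with DESeq2 (5.41% of the 37 members with an adjusted p, beside 5.31% of all genes). A figure legend of the study gives another rule, a fold change of at least 1.5 with an adjusted p under 0.05. Fzd2 and Fzd7 passed that rule with DESeq2, and no member did in the limma fit above. The share of all genes past it was not counted. With the replicate number as a block, limma called 3 members, Fzd2, Fzd7 and Dkk3 (6.67%, beside 2.83% of all genes). Without the block, an unadjusted p under 0.05 in limma was found for 8 members (17.8%, beside 14.7%). These were Wnt7b, Wnt10a, Lgr4 and Axin1, above control (8.9%, beside 8.38%), and Fzd2, Fzd7, Dkk3 and Tcf7l1, below control (8.9%, beside 6.33%). The groups did not overlap in 9 members (20.0%, beside 20.2%). With 23 members above 0 and 22 below, the median difference was 0.01, beside 0.00 over all genes. The shares without the block lay near those of all genes.

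**Figure D4:**
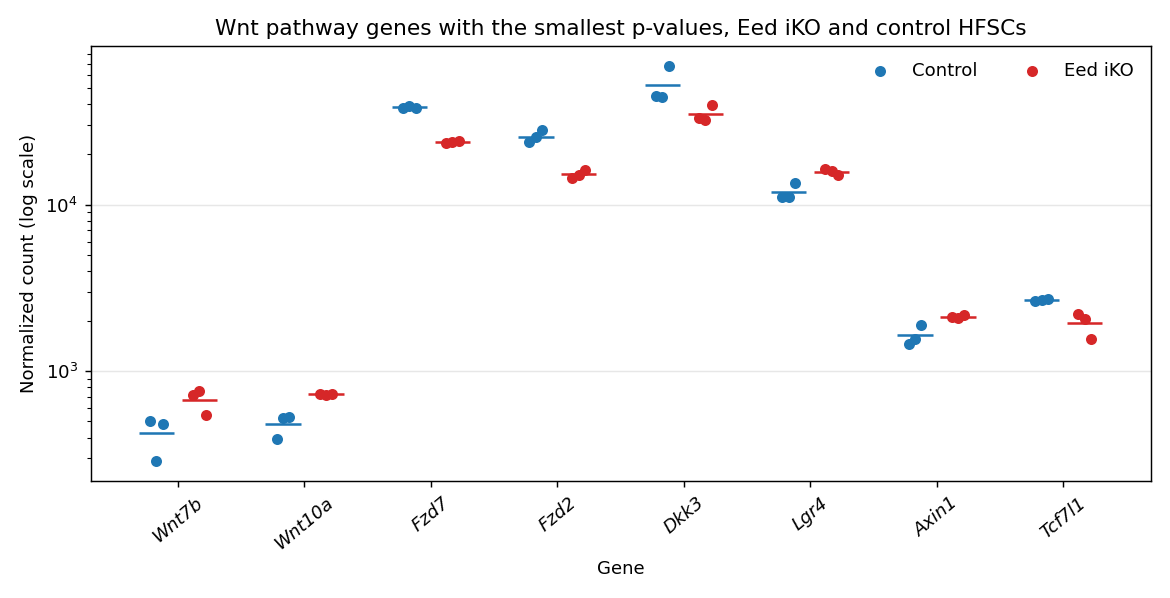
Normalized counts on a log axis of the 8 members with an unadjusted p under 0.05 between Eed iKO and control, with a point for each of the 3 libraries per group and a line at the group mean. In each gene the groups do not overlap, with 4 genes above control and 4 below, and none had an adjusted p under 0.05.

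Among the members tested, Fzd2 and Fzd7 had the smallest p-values of the Eed comparison. Fzd2 was at 23554, 25242 and 27891 normalized counts in control and 14337, 14973 and 16161 in Eed iKO. The groups were well apart, and the difference was -0.75 ± 0.13 (1.68-fold lower, adjusted p = 0.083 by limma, 0.0896 by edgeR and 9.07e-05 by DESeq2). Fzd7, encoded on chr1:59482424-59486955 (GRCm38, plus strand), was at 37905, 38840 and 37917 in control and 23324, 23802 and 24092 in Eed iKO. These values were tight within each group, with a difference of -0.69 ± 0.12 (1.61-fold lower, adjusted p = 0.0838 by limma, 0.0896 by edgeR and 4.97e-05 by DESeq2). Without Eed iKO replicate 3, the library with low Mki67, both were called by limma, with adjusted p of 0.0241 for Fzd2 and 0.0322 for Fzd7, and so were 1.35% of all genes. For both genes the adjusted p was 0.429 without Eed iKO replicate 1, 0.314 without Eed iKO replicate 2 and 0.294 without the intensity trend. Fzd1 (0.08 ± 0.15), Fzd3 (-0.02 ± 0.13) and Fzd6 (-0.03 ± 0.14) had overlapping groups, and their 95% intervals lay within -0.34 and 0.40.

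Fzd2 held 30.7%, 31.8% and 33.7% of the summed Frizzled level per kb in control and 25.6%, 25.5% and 27.7% in Eed iKO. Fzd7 held 40.0%, 39.6% and 37.0% in control and 33.6%, 32.8% and 33.4% in Eed iKO. Summed over all 12 receptors, the level per kb was 23363, 24150 and 25541 in control and 18187, 18518 and 18286 in Eed iKO, which did not overlap. Fzd7 (mean 8433 in control and 5238 in Eed iKO) and Fzd2 (6978 and 4138) are the largest parts of this sum. By gene, 5 receptors had differences above 0 and 7 below, with a median of -0.025, so the sum does not describe the receptors in general. Lrp5 (3807, 5171 and 7531 in control, 4848, 4438 and 3943 in Eed iKO) and Lrp6 (15881, 13975 and 13711 in control, 18167, 15281 and 15098 in Eed iKO) had adjusted p-values of 0.611 and 0.640.

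Of the ligands, Wnt10a and Wnt7b lay above control in every Eed iKO library. Wnt10a, a canonical ligand needed for hair and tooth growth, was at 395, 524 and 533 in control and 726, 722 and 734 in Eed iKO (0.60 ± 0.24, unadjusted p = 0.0289, adjusted p = 0.276 by limma). Wnt7b was at 504, 288 and 485 in control and 722, 762 and 546 in Eed iKO (0.70 ± 0.30, unadjusted p = 0.0391, adjusted p = 0.308 by limma). Neither was called under any alternative run. Wnt5a (121, 52.0 and 21.8 in control, 75.3, 73.0 and 53.4 in Eed iKO) and Wnt6 (21.5, 19.5 and 76.2 in control, 15.1, 38.5 and 22.7 in Eed iKO), the other ligands called in the hair cycle, overlapped between the groups. Wnt4 was at 3158, 3102 and 3029 in control and 3074, 5355 and 3205 in Eed iKO.

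Dkk3 was at 44892, 44317 and 67990 in control and 33227, 32127 and 39506 in Eed iKO, with no overlap (-0.56 ± 0.19, unadjusted p = 0.0124, adjusted p = 0.204 by limma). Sfrp1 was at 70444, 83045 and 95829 in control and 82532, 100437 and 78999 in Eed iKO, and Wif1 at 271, 428 and 390 in control and 472, 600 and 162 in Eed iKO. Both overlapped. Lgr4 was at 11046, 11093 and 13491 in control and 16229, 15811 and 15002 in Eed iKO (0.41 ± 0.13, unadjusted p = 0.0117, adjusted p = 0.198 by limma). Lgr5 was at 32365, 34805 and 38629 in control and 28069, 30288 and 31211 in Eed iKO, with no overlap and a 95% interval from -0.54 to 0.06.

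Among the transducers, Tcf7l1, a TCF factor known mainly as a repressor in skin stem cells, was at 2655, 2693 and 2698 in control and 2219, 2062 and 1570 in Eed iKO. No Eed iKO library reached the control values (-0.47 ± 0.17, unadjusted p = 0.0183, adjusted p = 0.231 by limma). Axin1 was at 1458, 1571 and 1891 in control and 2116, 2100 and 2162 in Eed iKO (0.38 ± 0.16, unadjusted p = 0.0411, adjusted p = 0.313 by limma). Ctnnb1 was at 28889, 26689 and 26341 in control and 35363, 35138 and 26101 in Eed iKO, where replicate 3 lay below every control library. Tcf7l2 was at 12929, 16889 and 19969 in control and 13820, 17236 and 14880 in Eed iKO. Of the feedback targets, Axin2 was at 2294, 3076 and 4178 in control and 3413, 3436 and 3321 in Eed iKO (0.13 ± 0.20, 95% interval -0.32 to 0.58), and none of the 4 had groups that did not overlap. The remaining members tested had overlapping groups, with differences from -1.54 (Wnt3) to 1.73 (Sfrp2), both genes with libraries at 0. Lef1 was at 390, 648 and 677 in control and 436, 768 and 370 in Eed iKO. Of 53 other pathway genes tested, 0 were called by limma and 8 had an unadjusted p under 0.05 (15.1%, beside 14.7%).

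The cells of the Eed iKO libraries differed in proliferation markers, whose part in these results was not tested. The summed normalized count of the 5 markers was 1401, 3615 and 1337 in control and 10055, 9786 and 1003 in Eed iKO. Markers of interfollicular epidermis summed to 10849, 7918 and 39515 in control and 14691, 4839 and 57553 in Eed iKO, highest in replicate 3 of both groups. The fibroblast and dermal papilla list, with 5 of 8 genes tested and 0 called, summed to 1835, 2660 and 3408 in control and 1858, 1340 and 2037 in Eed iKO.

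Set side by side, the comparisons share no library, and 39 members were tested in both. The sign was the same for 25 of the 39 (64.1%), beside 7911 of the 13362 genes tested in both (59.2%). Of the 11 members called in the hair cycle, 9 had the same sign in Eed iKO (81.8%), beside 70.7% of the 1532 called genes tested in both. Lrp5 and Wnt6 were the exceptions. For Sfrp1, Lgr6, Tcf7, Fzd5 and Wnt5a the Eed iKO difference was smaller than its SE. The sign of these genes in Eed iKO turned in 1 to 3 of 13 alternatives and is not settled. Fzd2, Wnt7b, Lgr4 and Ctnnb1 kept their sign in all 13. Fzd2 was the lowest member in anagen at -1.54 and gave -0.75 in Eed iKO, whereas Fzd7 gave 0.16 in anagen and -0.69 in Eed iKO. Wnt7b gave 2.20 and 0.70, Wnt10a 1.27 and 0.60, and Lgr4 0.97 and 0.41, in anagen and in Eed iKO. Across these 39 genes Pearson's r was 0.40, beside 0.25 across all genes tested in both, and genes within a table share libraries and are not independent replicates. The tables were normalized separately, and a difference between the comparisons was not tested.

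**Figure D5:**
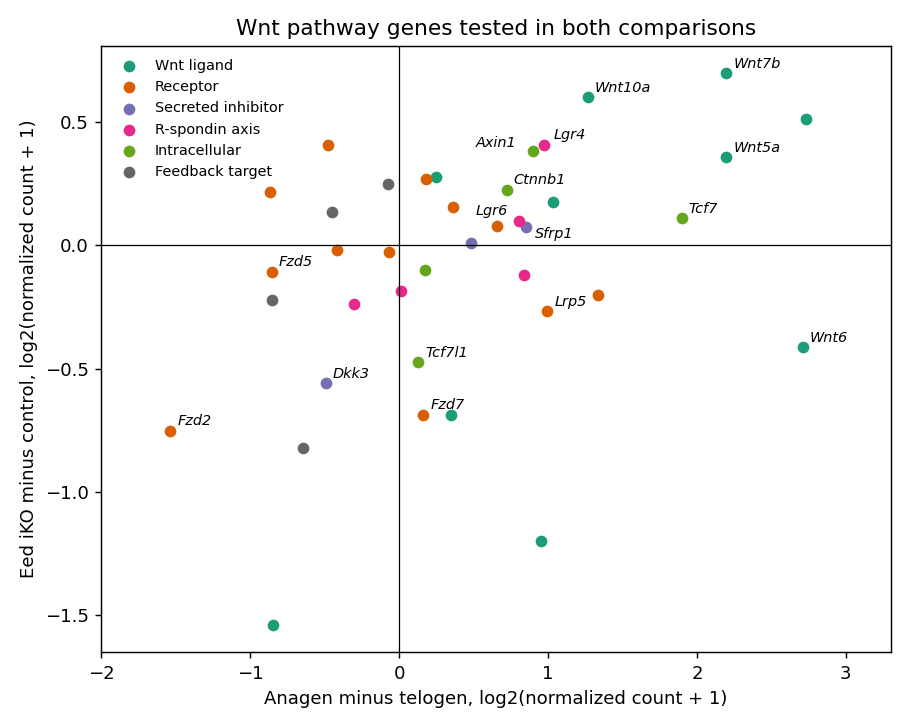
Difference in log2(normalized count + 1) of the 39 members tested in both tables, anagen minus telogen on the horizontal axis and Eed iKO minus control on the vertical axis, coloured by role, with names at members called in the hair cycle or with an unadjusted p under 0.05 in Eed iKO. Points fall in the same-sign quadrants for 25 of 39 members, with Fzd2 at the lower left and Wnt7b at the upper right.

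Promoters of the members were read from RefSeq windows of 300 bases (GRCm38.p6), from 250 bases before to 50 after the start of the gene, which were found for 35 of the 54. The windows were rich in CpG. Over the 42 windows of these genes the median GC content was 67.2%, beside 52.7% over all 32851 windows, and 66.7% held 20 or more CpG dinucleotides, beside 26.5%. The core letters of a TCF/LEF site, searched as CTTTGA and CTTTGT on both strands, were in 9 of the 35 genes (25.7%), beside 34.5% of all genes with a window. Of the 11 members called in the hair cycle, 6 had a window and 0 a match. Of the 8 with an unadjusted p under 0.05 in Eed iKO, 3 had a window (Fzd7, Lgr4 and Tcf7l1), and the letters were in 2 of these. A match is a description of letters and not of a bound site, and no match says only that these letters are not in the window. The windows of those 2 genes are shown with the match in capitals, beside that of Wnt6, the called member with the largest difference in the hair cycle, which has no match.
Fzd7, chr1:59481897-59482196, plus strand: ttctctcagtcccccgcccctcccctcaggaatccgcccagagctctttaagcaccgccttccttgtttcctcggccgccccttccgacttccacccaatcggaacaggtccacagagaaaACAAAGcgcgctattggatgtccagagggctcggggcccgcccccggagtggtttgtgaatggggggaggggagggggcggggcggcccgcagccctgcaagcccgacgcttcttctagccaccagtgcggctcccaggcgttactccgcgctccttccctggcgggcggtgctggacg
Tcf7l1, chr6:72788996-72789295, minus strand: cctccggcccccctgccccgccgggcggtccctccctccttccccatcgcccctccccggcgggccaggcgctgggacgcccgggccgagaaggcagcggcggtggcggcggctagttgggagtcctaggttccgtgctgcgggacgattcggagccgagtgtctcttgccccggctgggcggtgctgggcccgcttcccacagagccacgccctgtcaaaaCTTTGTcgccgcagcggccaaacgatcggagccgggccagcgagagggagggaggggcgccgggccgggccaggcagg
Wnt6, chr1:74771642-74771941, plus strand: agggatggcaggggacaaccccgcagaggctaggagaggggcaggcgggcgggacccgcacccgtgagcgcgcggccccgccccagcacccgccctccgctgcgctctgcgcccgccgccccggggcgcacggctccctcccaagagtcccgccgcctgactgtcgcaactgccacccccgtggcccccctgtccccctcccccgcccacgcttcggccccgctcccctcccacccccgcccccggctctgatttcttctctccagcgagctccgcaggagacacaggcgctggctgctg
The capitals ACAAAG in Fzd7 are CTTTGT read on the other strand. In Fzd7 the match begins 129 bases and in Tcf7l1 28 bases before the start, and the RefSeq start of Fzd7 lies before the start that GENCODE gives.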

How the data were processed

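HFSC RNA was sequenced in 12 libraries, 3 for each of control, Eed iKO, anagen and telogen, which were grouped and numbered from the labels. The authors quantified reads on Gencode mouse transcripts with kallisto (0.42.5) for build mm10 and normalized them with DESeq2 (3.11 in the submitters' processing notes). Each comparison has its own table, whose deposited signal is the gene's estimated count scaled by the DESeq2 size factor of its library. The log2 fold changes with their SEs, the p-values and the test scores that the authors deposited beside these values were not used. Groups were compared with limma (3.58.1, R 4.3.3, intensity trend) on log2(normalized count + 1), after filterByExpr at a count minimum of 10, with Benjamini-Hochberg adjustment over all genes of a table. Differences of low genes are understated on this scale. Whole reads were recovered from the Eed table, where 100% of values were whole multiples of 1 constant within 0.02 reads, and were tested with edgeR (4.0.16) and DESeq2 (1.42.0). Of the hair cycle values, 8.5% to 18.7% were whole, so its depth is unknown. Alternatives were another pseudocount, no filter, TMM scaling, no intensity trend, the replicate number as a block and each library left out. All intervals are 95% intervals of limma. Coordinates and the lengths of principal transcripts are from GENCODE vM21 (GRCm38).

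Full values are given for members past a call rule or with an unadjusted p under 0.05, for the 8 with the highest level per kb in each table, and for Lgr5, Axin2, Wif1, Sfrp1, Dkk3, Tcf7l1, Tcf7l2, Ctnnb1, Wnt10b and Wnt7b. The members, roles and other lists were chosen with earlier results of these data known. The study's methods describe biological replicates, so p-values measure the spread between these animals or pools. The test was checked on simulated data.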

Additional observations from a re-analysis of the deposited data

How the results depend on the processing

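In the Eed comparison, the 4 genes called by limma became 424 with the replicate number as a block, 2 without an intensity trend, 673 with DESeq2 on recovered reads, and 1 to 203 with a library left out (203 without Eed iKO replicate 3, 1 without any other). The 0 members called became 3 with the block (Fzd2, Fzd7 and Dkk3, 6.67% beside 2.83% of all genes), 2 with DESeq2 (Fzd2 and Fzd7) and 0 to 2 with a library left out, the 2 without Eed iKO replicate 3. The 263 genes past the methods' thresholds became 425 without the filter and 197 to 413 with a library left out, and the 0 members 0 to 1, Wnt2b without control replicate 3 or Eed iKO replicate 1. The 8 members with an unadjusted p under 0.05 became 5 without the trend and 5 to 9 with a library left out, 5 without Eed iKO replicate 1 or 2. In the hair cycle, the 1556 genes called became 842 without the trend and 597 to 1529 with a library left out, and the 11 members became 5 and 3 to 10. They were 4 without anagen replicate 1, 3 without anagen replicate 2 or 3, and 9 without telogen replicate 1. Members past the methods' thresholds numbered 2 to 4, with 2 without telogen replicate 1 or 2, and those with an unadjusted p under 0.05 13 to 19, with 13 without anagen replicate 1. The cause of these shifts was not tested. No difference of a named gene that was called or past the methods' thresholds changed sign. TMM scaling moved the median difference by 0.003 and -0.008. Same-numbered libraries had correlations of deviations from the group means of 0.039, 0.068 and 0.193 in the Eed table and -0.035, -0.071 and -0.029 in the hair cycle table, and 4 of 6 and 0 of 6 libraries correlated best with their own number. The main fits did not take the numbers as pairs. For the Eed table these values do not decide whether they are pairs, and its calls depend on that choice. The block changed the member calls of the hair cycle from 11 to 8. Low members of the hair cycle table, such as Wnt6, are limited by an unknown depth.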

Other observations

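Wnt6 and Wnt10a are neighbours on the plus strand of chromosome 1 (chr1:74771892-74785322 and chr1:74791516-74804179, GRCm38). In the hair cycle both had anagen libraries that were all above telogen, at differences of 2.71 and 1.27. In the Eed comparison Wnt10a was above control in 3 of 3 Eed iKO libraries (0.60) while Wnt6 overlapped (-0.41). Per kb, Wnt10a was at 295 ± 2.31 (SD, n = 3) normalized counts in Eed iKO and Wnt6 at 12.3 ± 5.78.

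Dkkl1, a secreted protein related to the Dickkopf inhibitors and not among the 54 genes, passed the methods' thresholds in both comparisons, but not under many of the alternatives. It was at 187, 151 and 151 normalized counts in control and 29.0, 13.3 and 185 in Eed iKO, where replicate 3 lay with control (-1.92 ± 0.82, unadjusted p = 0.0398, adjusted p = 0.31 by limma). The difference was -2.97 without Eed iKO replicate 3 (adjusted p = 0.0487), -1.12 without Eed iKO replicate 2 (unadjusted p = 0.158), -1.08 by edgeR (0.223) and -1.10 by DESeq2 (0.163), and over the alternatives the adjusted p ranged up to 0.635. In the hair cycle it was at 18.6, 27.4 and 10.4 in telogen and 4.69, 11.1 and 0 in anagen (-2.18 ± 0.98, adjusted p = 0.18 by limma), and the difference was -1.16 without anagen replicate 3 (unadjusted p = 0.188).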
